A study of Homo sapiens with 5 samples.

Results

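The genes described here are 29 genes of cholesterol and fatty acid synthesis, taken by their symbols from the 36601 gene rows of the count matrix. All 29 symbols were found. The genes were listed by pathway and not by a measured value, though earlier results of these data were known. They were followed as a share of the UMIs (molecules counted by their unique molecular identifiers) of each nucleus, gene by gene between groups of nuclei, and as chromatin accessibility at the gene starts.

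Human lung adenocarcinoma cells of 5 lines (H838, HCC827, A549, H2228 and H1975) were grown apart in RPMI medium with serum, without drug or genetic treatment, and mixed in equal cell numbers. Nuclei were isolated and sorted, and RNA and open chromatin (ATAC) were read under 1 shared barcode per nucleus. The droplets (GEMs) were divided into an 80% and a 20% portion, each with 1 RNA and 1 ATAC library. The portions are technical divisions of 1 preparation of 1 mixture, so no difference between groups of nuclei is tested here, and every interval is a 95% interval for counting error only.

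Cholesterol is built from acetyl-CoA through mevalonate, isoprenoid units, squalene and lanosterol, and long-chain fatty acids are built from the same acetyl-CoA by carboxylation, elongation and desaturation. Most genes of both routes are targets of the SREBP transcription factors, which are held in the endoplasmic reticulum by SCAP and the INSIG proteins while membrane sterol is ample and are cut and sent to the nucleus when it falls. INSIG1 is itself such a target, so its RNA is widely read as a gauge of the sterol response, and proliferating tumour cells are known for high use of both routes. The 29 genes comprise 3 SREBP regulators, 7 genes of the mevalonate arm, 10 of the squalene and sterol arm, the sterol transfer protein gene STARD4 and 8 genes of fatty acid synthesis.

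The 80% portion held 6557 nuclei with 95455518 UMIs and a median of 13306 UMIs per nucleus, and the 20% portion held 1286 nuclei with 14346346 UMIs. Nuclei were grouped by RNA into 6 clusters of 328 to 2469 nuclei after the 29 genes and 48 other genes of lipid metabolism had been left out, so that the genes described could not shape the groups. The clusters were not matched to cell lines, since the labels of single barcodes were not used here and 6 clusters stand against 5 lines. They are called by number and by leading genes: 0 (MEG3, MEG8), 1 (ALDH1A1, TM4SF4), 2 (AC069277.1, CARD18), 3 (MT1E, PEG10), 4 (TAGLN, PVT1) and 5 (AC090578.1, EGFR). Median depth ranged from 9135.5 UMIs in cluster 1 to 17586 in cluster 3. KRT8 and KRT18, keratins of simple epithelium, were at 511 CPM or more in every cluster, whereas PTPRC, a gene of leukocytes, was at most at 0.740 CPM. EPCAM, another epithelial gene, was uneven, at 111, 41.5, 23.4, 681, 35.5 and 764 CPM in clusters 0 to 5. The portions shared 159 barcodes, which is 12.4% of those of the 20% portion, and the values without them are given in the closing section.

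Promoter sequences of 4 of the genes with the widest range between clusters are shown, because the RNA and accessibility described below start here. They come from RefSeq (GRCh38.p14), run from 250 bases before to 50 bases after the gene start, and each lies in a peak of the 80% portion. The capitals mark CCAAT on either strand (ATTGG on the opposite one), the binding sequence of NF-Y, a factor known to act beside SREBPs at sterol genes.
STARD4, chr5:111512486-111512785, minus strand: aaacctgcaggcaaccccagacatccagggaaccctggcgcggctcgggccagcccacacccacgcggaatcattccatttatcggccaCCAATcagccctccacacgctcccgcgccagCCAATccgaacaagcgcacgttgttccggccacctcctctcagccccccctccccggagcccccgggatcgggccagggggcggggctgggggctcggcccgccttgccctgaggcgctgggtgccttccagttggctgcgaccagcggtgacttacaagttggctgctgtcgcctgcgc
INSIG1, chr7:155297628-155297927, plus strand: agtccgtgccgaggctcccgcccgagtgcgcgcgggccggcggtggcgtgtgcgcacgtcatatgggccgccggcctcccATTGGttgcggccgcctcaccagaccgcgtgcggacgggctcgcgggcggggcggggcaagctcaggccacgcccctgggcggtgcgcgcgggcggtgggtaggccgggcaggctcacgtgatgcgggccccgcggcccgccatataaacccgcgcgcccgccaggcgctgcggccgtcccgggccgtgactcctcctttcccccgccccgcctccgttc
MSMO1, chr4:165327419-165327718, plus strand: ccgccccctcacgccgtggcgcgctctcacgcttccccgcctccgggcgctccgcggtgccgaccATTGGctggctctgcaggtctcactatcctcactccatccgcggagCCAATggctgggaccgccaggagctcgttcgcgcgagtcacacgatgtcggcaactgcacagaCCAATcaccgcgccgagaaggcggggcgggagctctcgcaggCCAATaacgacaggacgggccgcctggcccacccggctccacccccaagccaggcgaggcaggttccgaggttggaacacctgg
ELOVL6, chr4:110198566-110198865, minus strand: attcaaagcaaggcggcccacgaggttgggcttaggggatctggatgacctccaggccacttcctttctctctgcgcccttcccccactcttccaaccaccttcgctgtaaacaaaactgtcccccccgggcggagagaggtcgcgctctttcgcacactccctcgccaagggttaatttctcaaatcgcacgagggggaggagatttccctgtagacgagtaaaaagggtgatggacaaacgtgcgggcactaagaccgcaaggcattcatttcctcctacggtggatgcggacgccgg
CCAAT was found 161 and 130 bases before the STARD4 start, 170 bases before the INSIG1 start and at 4 positions from 185 to 34 bases before the MSMO1 start, and it was not found in the ELOVL6 window. Of the 29 genes, 25 had 34 entries in the promoter table. CCAAT was present in 70.6% of these 34 promoters, against 34.6% of all 35116 promoters and 35.1% of the 14097 promoters of genes counted in the RNA comparison below. The GC box GGGCGG, bound by SP1, was present in 88.2% of the 34 promoters, against 45.0% of all and 65.3% of those of counted genes. The E-box CACGTG was present in the promoters of INSIG1, LSS and SC5D, which is 11.8% of the 34 promoters against 7.26% of all and 9.31% of those of counted genes. The core of the classical sterol regulatory element, searched as TCACNCCAC on both strands, was in 1 of the 34 promoters, that of SREBF2 (2.94%, against 1.13% of all). Genes can have several promoter entries, and a match is a match of letters only.

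Taken as a whole, the 29 genes held 0.190% of the UMIs in the 80% portion and 0.195% in the 20% portion, with a median of 24 and 19 UMIs per nucleus. Of the pooled UMIs of a cluster, the share was highest in cluster 5 (AC090578.1, EGFR) and lowest in cluster 2 (AC069277.1, CARD18). In the 80% portion it was 0.173% in cluster 0, 0.240% in cluster 1, 0.164% in cluster 2, 0.202% in cluster 3, 0.185% in cluster 4 and 0.264% in cluster 5. In the 20% portion the values in the same order were 0.178%, 0.255%, 0.169%, 0.224%, 0.199% and 0.264%. The order of the pooled shares was thus the same in both portions, and in the 80% portion no pair of counting intervals overlapped (0.259% to 0.268% in cluster 5, 0.163% to 0.166% in cluster 2). In the 20% portion the intervals of cluster 5 (0.252% to 0.277%) and cluster 1 (0.248% to 0.262%) overlapped. The highest pooled share of the 80% portion was 1.60 times the lowest (interval 1.57 to 1.64). The median nucleus gave other ends in the 80% portion, with cluster 1 at 0.236% next to cluster 5 at 0.234% and cluster 0 at 0.161% next to cluster 2 at 0.163%. The medians of the 20% portion were 0.239% in cluster 1, 0.2502% in cluster 5, 0.163% in cluster 0 and 0.160% in cluster 2. Cluster 5 had the highest upper range of nuclei in the 80% portion, with a 95th percentile of 0.523% against 0.372% in cluster 1.

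**Figure D1:**
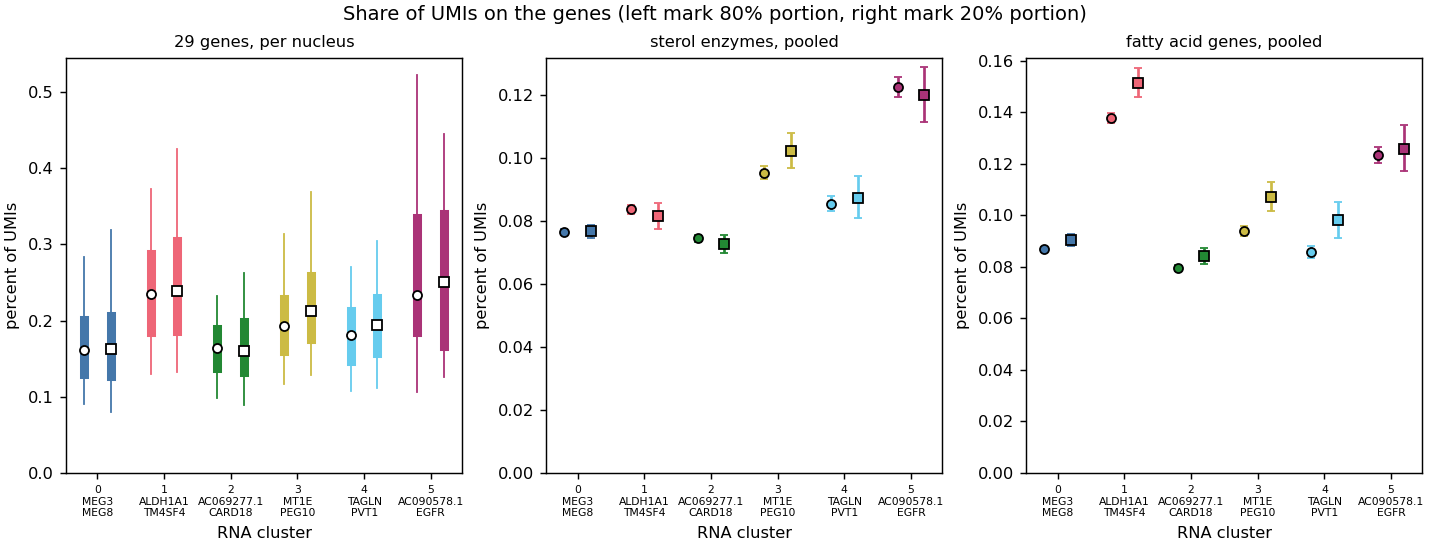
Percent of UMIs on the genes in each RNA cluster, with circles for the 80% and squares for the 20% portion: on the left the median nucleus with the interquartile range of nuclei as a thick bar and the 5th to 95th percentile as a thin line, on the other panels pooled shares with 95% counting intervals. Clusters 1 and 5 lie highest for the 29 genes, cluster 5 alone is highest for the 17 sterol enzymes at 0.122%, and cluster 1 is highest for the 8 fatty acid genes at 0.138%.

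The arms of the pathway did not follow the same order of clusters. The 17 enzymes of the mevalonate and sterol arms held 0.122% of the UMIs in cluster 5, 0.0953% in cluster 3 and between 0.0744% and 0.0855% in the others. The 8 fatty acid genes held 0.138% in cluster 1, 0.123% in cluster 5 and between 0.0794% and 0.0939% in the others. Within the sterol route, cluster 2 was lowest for the squalene and sterol arm (0.0322%) but not for the mevalonate arm (0.0422%, with cluster 5 at 0.0502%), in which IDI1 was at its highest. For that arm the interval of cluster 2 overlapped that of cluster 4 (0.0410%), and in the 20% portion clusters 2, 3 and 4 lay between 0.0401% and 0.0406%. Gene by gene, cluster 2 was lowest for 4 of the 7 mevalonate genes (25.6% of all counted genes were lowest there) and highest for IDI1 and ACAT2. The median of the 7 genes in cluster 2 was 0.773 times the mean of the other clusters, against 0.865 or more elsewhere. In the 20% portion that median was 0.996, and cluster 2 was lowest for 2 genes. Summed RNA of 20 S phase genes and of 20 G2/M genes was also lowest in cluster 2, at 1210 and 1595 CPM (UMIs per 1000000), against 1780 to 2496 and 2071 to 3469 in the other clusters, and mitochondrial RNA was highest in cluster 5 at 1.51% of UMIs. The part of cell cycle and of RNA quality in the lipid gene shares was not tested.

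Among the 3 SREBP regulators, INSIG1 and SREBF2 were highest in cluster 5 and SREBF1 in cluster 1. INSIG1, which retains the SCAP and SREBP complex, was measured at 16.5, 18.4, 4.61, 27.7, 22.7 and 48.9 CPM (UMIs per 1000000 UMIs of the cluster) in clusters 0 to 5. Cluster 5 was 2.72 times and cluster 2 0.172 times the mean of the other clusters, and the counting intervals of neither met those of any other cluster. In the 20% portion INSIG1 was at 13.8, 21.3, 6.98, 20.1, 16.7 and 51.2 CPM, with the same clusters highest and lowest (3.25 and 0.284 times the others). SREBF1, which encodes SREBP-1 and drives chiefly fatty acid synthesis, was at 36.3, 105, 60.8, 40.3, 42.4 and 55.0 CPM. It was highest in cluster 1, 2.24 times the mean of the others and 1.73 times cluster 2, the next in order. SREBF2, which encodes SREBP-2 and drives chiefly sterol synthesis, varied least, from 33.8 CPM in cluster 0 to 55.2 CPM in cluster 5, and its intervals in clusters 1, 4 and 5 overlapped. The intronic miRNAs MIR33B and MIR33A lie on the same strand inside SREBF1 and SREBF2, and reads could not be assigned between them here.

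In the mevalonate arm, HMGCS1 had the widest range. HMGCS1, the synthase that makes HMG-CoA, was at 33.3, 95.9, 27.9, 58.3, 57.8 and 105 CPM in clusters 0 to 5 and at 33.4, 87.7, 29.1, 66.4, 61.5 and 107 CPM in the 20% portion. Clusters 1 and 5 were high, with overlapping intervals (90.9 to 101 and 96.4 to 115), and clusters 0 and 2 were below 0.5 times the mean of the others (0.483 and 0.397). IDI1, the isomerase that interconverts the isoprenoid units, ran the other way: it was at 51.5, 62.6, 97.2, 46.5, 49.5 and 42.1 CPM, highest in cluster 2 and lowest in cluster 5, with the same ends in the 20% portion (85.2 and 32.0 CPM). ACAT2, a thiolase that joins acetyl-CoA units, was also highest in cluster 2, at 55.1 CPM, with cluster 5 at 52.9 CPM within its interval. FDPS, the farnesyl diphosphate synthase, had the highest mean level of the arm and ranged from 129 CPM in cluster 1 to 242 CPM in cluster 5. Of the enzymes between HMG-CoA and the isoprenoid units, the decarboxylase gene MVD went from 7.75 CPM in cluster 2 to 19.9 CPM in cluster 5, and the kinase gene MVK from 2.15 CPM in cluster 2 to 7.05 CPM in cluster 5. MVK rested on 477 UMIs in all, and its intervals in the 5 clusters other than cluster 2 overlapped. PMVK, the second kinase, was the flattest gene of the arm at 31.8 to 49.5 CPM.

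The squalene and sterol arm was the part of the route most often highest in cluster 5. Cluster 5 was highest for 7 of its 10 genes in the 80% portion, against 13% of the 12548 genes with a mean of at least 5 CPM, and for 6 of 10 in the 20% portion, against 13.8%. MSMO1, which oxidises methyl groups of lanosterol products, was at 56.2, 36.7, 19.1, 38.5, 35.7 and 88.5 CPM in the 80% and 55.8, 35.1, 22.7, 49.4, 48.7 and 128 CPM in the 20% portion. Cluster 5 stood above and cluster 2 below all others in both. DHCR7, the reductase of the last step to cholesterol, was at 17.1, 22.1, 26.9, 18.7, 22.1 and 58.1 CPM, with cluster 5 at 2.16 times cluster 2, the next in order. FDFT1, the squalene synthase, reached 120 CPM in cluster 5 against 40.2 to 70.8 CPM elsewhere, and SC5D, a sterol desaturase, reached 48.7 CPM against 16.9 to 36.4 CPM. LSS, which closes the lanosterol ring, and HSD17B7, a sterol ketone reductase, were highest in cluster 5 at 19.9 and 19.5 CPM. For LSS the interval overlapped that of cluster 0 (18.0 CPM), and for HSD17B7 those of clusters 1 and 3 (14.2 and 13.4 CPM).

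The remaining genes of that arm had other clusters at or near the top. CYP51A1, the lanosterol demethylase, was highest in cluster 3 at 140 CPM with cluster 5 at 136 CPM within its interval, and cluster 0 was lowest at 58.5 CPM. NSDHL, which acts beside MSMO1, was at 43.8 CPM in cluster 5 and 42.1 CPM in cluster 3, again with overlapping intervals. EBP, the sterol isomerase, was highest in cluster 3 at 130 CPM and lowest in cluster 2 at 64.8 CPM. SQLE, the squalene epoxidase and a slow step of the route, was highest in cluster 1 at 84.8 CPM and lowest in cluster 4 at 44.5 CPM, in both portions. In cluster 2 the lowest level of the 6 was found for 5 of the 10 genes of the arm (25.6% of all counted genes). There MSMO1 and NSDHL were at 0.374 and 0.433 times the mean of the other clusters. The median of the other counted genes within 5 Mb was 0.887 times around MSMO1 and 0.662 times around NSDHL. Both genes lay within the 5th to 95th percentile of these neighbours. CYP51A1 and EBP each lie on the strand of longer readthrough transcripts that overlap them, so their reads may be shared.

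STARD4, which carries cholesterol between membranes in the cytosol, had the widest range of the 29 genes. It was at 15.02, 10.1, 0.576, 10.7, 23.1 and 20.7 CPM in clusters 0 to 5. The value of cluster 2 rested on 11 UMIs among 19101007 (interval 0.287 to 1.03 CPM), whereas the other clusters held 97 to 629 UMIs. The highest cluster was 40.1 times the lowest (interval 21.7 to 82.1), and clusters 4 and 5 were not apart beyond counting error (19.4 to 27.3 and 16.9 to 25.2 CPM). In the 20% portion STARD4 was at 17.9, 10.1, 1.52, 16.2, 19.2 and 16.0 CPM, with 5 UMIs in cluster 2 and a ratio of 12.7 (interval 4.38 to 44.6) between the same clusters. The 26 other counted genes within 5 Mb of STARD4 had a median of 0.795 times the other clusters in cluster 2, where STARD4 was at 0.0361 times. Whether the few STARD4 UMIs of cluster 2 came from free RNA or from other nuclei was not tested.

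In fatty acid synthesis, clusters 1 and 5 shared the high values, with different genes in each. ACLY, which makes cytosolic acetyl-CoA from citrate, was at 51.7, 182, 99.3, 85.3, 87.1 and 128 CPM, 2.01 times the mean of the others in cluster 1 and 0.444 times in cluster 0. ACACA, the carboxylase that commits acetyl-CoA to fatty acids, was at 266 CPM in cluster 1 and 260 CPM in cluster 5, with overlapping intervals, and at 150.0 to 169 CPM elsewhere. FASN, the fatty acid synthase, was instead highest in cluster 5 at 93.3 CPM, 2.04 times the others, and was 31.7 to 63.0 CPM elsewhere. SCD, the desaturase that makes oleate, was at 138, 207, 84.1, 214, 205 and 312 CPM, and cluster 2 was at 0.391 times the others. ELOVL6, which lengthens palmitate, had the same clusters at its ends, from 23.9 CPM in cluster 2 to 103 CPM in cluster 5.

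The desaturases of polyunsaturated fatty acids had another order of clusters. FADS2, the desaturase that starts that branch, was at 58.8, 98.8, 33.6, 31.4, 29.97 and 18.9 CPM in the 80% and 64.5, 121, 40.9, 35.5, 32.0 and 16.0 CPM in the 20% portion, so that cluster 1 was 2.86 times and cluster 5 0.374 times the mean of the others. Cluster 5, high for most sterol genes, was thus the lowest for FADS2. FADS1, its neighbour on chromosome 11, was at 107, 225, 139, 101, 90.4 and 98.3 CPM and also highest in cluster 1. The 162 other counted genes within 5 Mb had a median of 0.860 times the other clusters in cluster 1. FEN1 overlaps FADS2 on the same strand, and its RNA was at 53.9 to 98.7 CPM and highest in cluster 4, not in cluster 1. ACSL3, which activates fatty acids, gave the most UMIs of the 29 genes (12.95% of their sum) and ranged from 147 CPM in cluster 4 to 313 CPM in cluster 1.

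**Figure D2:**
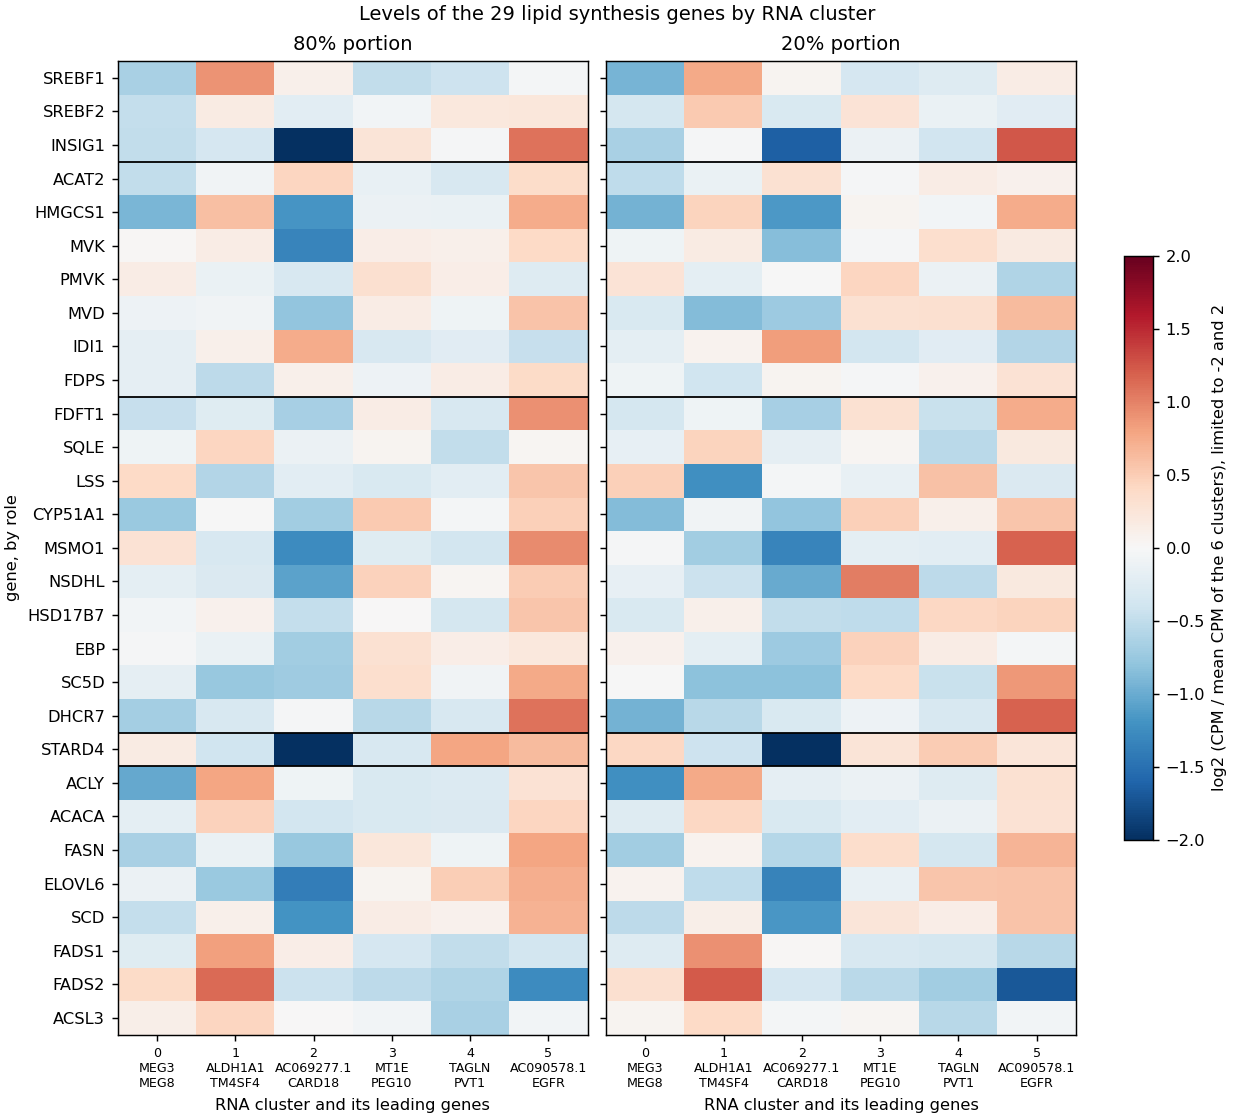
Level of each of the 29 genes in each RNA cluster as log2 of its CPM over its mean CPM of the 6 clusters, with the 80% portion on the left and the 20% portion on the right; colour runs from blue (lower) to red (higher) and is limited to 2 in either direction, and horizontal lines part the roles. Cluster 2 is blue for most sterol genes and red for IDI1, cluster 5 is red for most sterol genes and blue for FADS2, and the panels of both portions look alike.

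Counted over the whole list, 23 of the 29 genes differed at least 2-fold between their highest and lowest cluster, which is 79.3% against 67.3% of all 12548 counted genes. All 29 passed the floor of 5 CPM. The median fold was 2.89 for the 29 genes and 2.48 for all counted genes, so a range of this size was common in the mixture. The clusters at the ends were less evenly spread. Cluster 5 was highest for 16 of the 29 genes (background 13%), cluster 1 for 7 (background 17.0%), and cluster 2 was lowest for 15 (background 25.6%). The median gene of the list stood at 1.51 times the mean of the other clusters in cluster 5, where the median of all counted genes was 0.891, and at 0.681 times in cluster 2, where it was 0.929. At least 2-fold above the others in cluster 5 were 5 genes, INSIG1, FDFT1, MSMO1, DHCR7 and FASN (background 5.15%). The other counted genes within 5 Mb of each had medians of 0.892, 0.907, 1.12, 0.843 and 0.913 times there, in the same order. Of the 5 genes, MSMO1 alone did not exceed the 95th percentile of its neighbours (10.9 times). At or below 0.5 times the others in cluster 2 were 8 genes (background 18.4%), of which STARD4 and INSIG1 were lowest and the others were MVK, ELOVL6, MSMO1, SCD, HMGCS1 and NSDHL. Around these 8 genes the median of the neighbours in cluster 2 ran from 0.659 times (ELOVL6) to 0.918 times (SCD). STARD4, INSIG1 and SCD lay below the 5th percentile of their neighbours. MVK, ELOVL6, MSMO1, HMGCS1 and NSDHL lay within the 5th to 95th percentile of theirs. The highest cluster was the same in the 20% portion for 24 of 29 genes, against 73.5% of all counted genes, and the exceptions were SREBF2, MVK, LSS, CYP51A1 and NSDHL. In all of these but LSS the clusters concerned had overlapping intervals in the 80% portion, and LSS was at 20.5 CPM in cluster 4 and 11.2 CPM in cluster 5 of the 20% portion, from 16 and 7 UMIs.

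Averaged over the clusters, ACSL3 (231 CPM), SCD (193), ACACA (193) and FDPS (186) had the highest levels of the 29 RNAs and MVK (5.36) the lowest. Divided by kilobases of annotated exon, EBP (59.6 CPM), FDPS (50.1), PMVK (39.5) and SCD (36.8) came first and MVK (0.594), LSS (1.88) and STARD4 (2.35) last. UMIs count molecules, so values per kilobase depend on the annotated length and do not rank abundance. These libraries count nuclear RNA, in which introns can contribute, and per kilobase of gene FDPS and EBP had the highest values (15.6 and 15.2 CPM).

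Of the 48 other genes of sterol and fatty acid metabolism, 46 passed the floor and 28 differed at least 2-fold between clusters (background 67.3%). Cluster 5 was highest for 12 of the 46 and cluster 4 also for 12 (backgrounds 13% and 14.7%). Among the other sterol enzymes, 5 of 7 passed 2-fold. TM7SF2, a sterol reductase, was highest in cluster 2 at 60.9 CPM against 5.72 to 14.3 CPM elsewhere. Of the 7 genes that control SREBPs, 2 passed 2-fold, MBTPS2 and INSIG2, the latter highest in cluster 5 at 60.1 CPM against 24.6 to 41.8 CPM. SCAP ranged from 22.8 to 37.5 CPM. Of the 13 genes of uptake, storage and efflux 10 passed, among them ABCA1, which exports cholesterol, at 144, 19.3, 57.4, 101, 199 and 92.7 CPM. Of the 19 counted other fatty acid genes 11 passed, and the elongase gene ELOVL7 ran from 0.890 CPM in cluster 2 to 39.0 CPM in cluster 5.

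Accessibility was measured in the same nuclei but counted apart from RNA, as ATAC counts in peaks within 1000 bp of the gene start per 1000000 counts of the cluster (ATAC CPM). All 29 genes had such a peak, as did 96.5% of all counted genes. The range between clusters was narrower than in RNA: 11 of the 29 genes differed at least 2-fold, against 55.5% of the counted genes with a peak, and the median fold was 1.79 against 2.11. Over the 6 clusters, Pearson's r between RNA and accessibility had a median of 0.625 for the 29 genes and 0.661 for all, and 16 of 29 reached 0.5 (background 64.5%). With 6 points from the same nuclei these correlations are descriptions only.

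**Figure D3:**
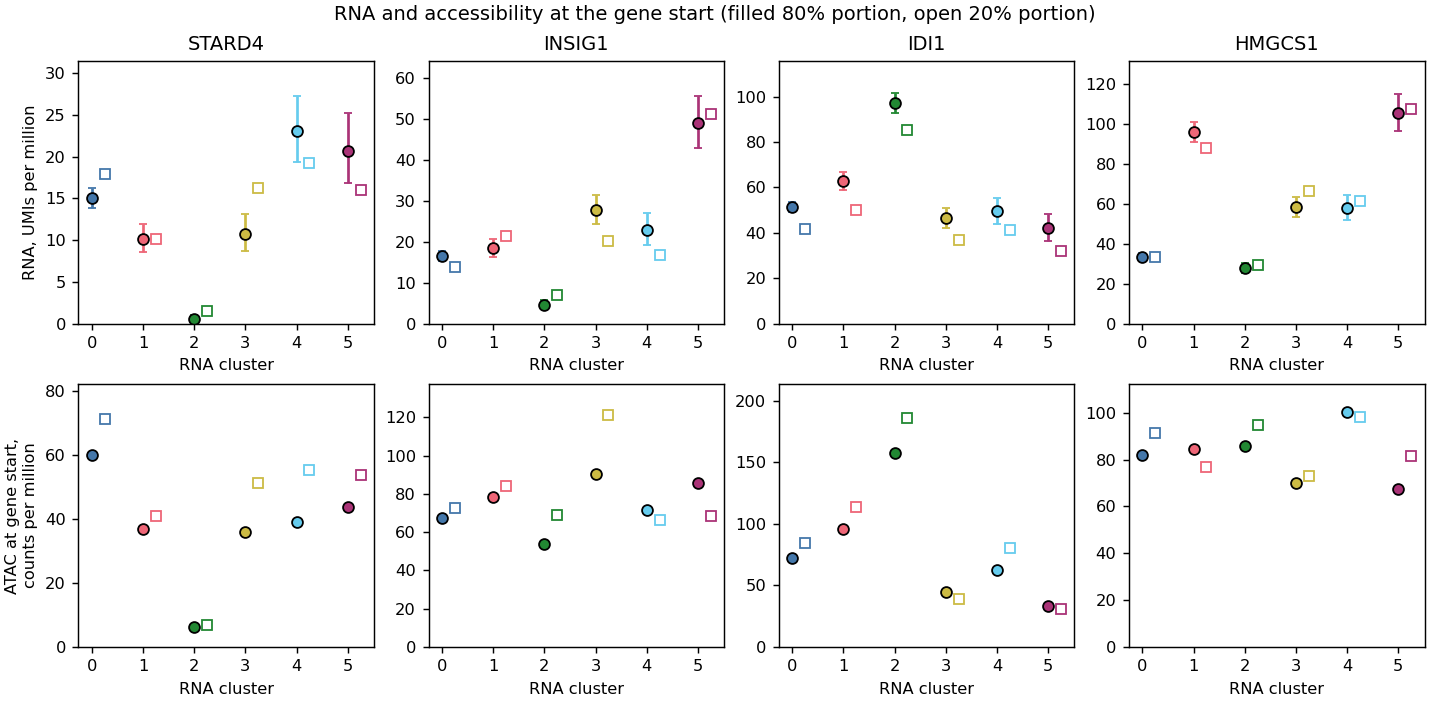
RNA in CPM (upper row, 95% counting intervals on the 80% portion) and ATAC CPM at the gene start (lower row) of STARD4, INSIG1, IDI1 and HMGCS1 in RNA clusters 0 to 5, filled circles for the 80% and open squares for the 20% portion. STARD4 in cluster 2 is low in both rows, IDI1 in cluster 2 is high in both, and HMGCS1 varies in RNA but little at its start.

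At the STARD4 start, where the promoter printed above lies in the peak chr5:111512160-111513078, the ATAC level was 60.1, 36.9, 6.09, 35.9, 39.0 and 43.9 CPM in clusters 0 to 5. Cluster 2 was therefore low in accessibility as well as in RNA, with 57 counts, and cluster 0 was 9.88 times as high (interval 6.81 to 14.9). In the 20% portion the values were 71.5, 41.0, 6.86, 51.2, 55.3 and 53.9 CPM. ATAC counts over the peaks within 5 Mb were at 0.790 times the other clusters in cluster 2. The antisense gene STARD4-AS1 shares this start, and its RNA was at 6.33 CPM in cluster 2 and at 4.43 to 45.8 CPM in the others, highest in cluster 4 like STARD4.

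After STARD4, IDI1 had the widest range at its start among the 29 genes. Accessibility was 72.4, 95.6, 158, 44.6, 62.4 and 33.3 CPM, highest in cluster 2 and lowest in cluster 5 as in RNA (r = 0.983), and the fold was 4.74 (interval 3.67 to 6.21). The start is shared with WDR37, on the opposite strand, whose RNA was also highest in cluster 2 (50.05 CPM) and lowest in cluster 5 (17.4 CPM), so the counts there cannot be assigned to IDI1 alone. SREBF1 was lowest in cluster 0 in both, with 25.3 ATAC CPM at its start against 40.8 to 80.0 in the others. INSIG1 varied little at its start, at 67.2, 78.6, 53.8, 90.6, 71.7 and 85.9 ATAC CPM, although cluster 2 was lowest in both. HMGCS1 was at 81.8, 84.5, 85.8, 69.8, 100.4 and 67.6 ATAC CPM in the 80% portion. There cluster 5, highest in RNA, was lowest at the start, close to cluster 3 (r = -0.366). The 20% portion did not repeat this: its values were 91.4, 76.9, 94.7, 72.9, 98.4 and 81.5 ATAC CPM, with cluster 3 lowest. With HMGCS1, 5 of the 29 genes had r below 0 (the share of all counted genes was not determined). The others were FASN (-0.176) and, near 0, MVD (-0.0910), FDFT1 (-0.0830) and FDPS (-0.0586). For FASN the start was most open in cluster 1 (135 ATAC CPM) while RNA was highest in cluster 5. In total, 17 of the 29 genes shared the window with the start of another gene (the share of all counted genes was not determined). For ACACA, FADS1, FADS2 and FDFT1 the start intervals in the feature table were wide and took in 2 to 12 peaks.

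Nuclei of a cluster also differed among themselves in the 29 genes, and most in cluster 5. To compare nuclei of unequal depth, each was thinned to 5000 UMIs. The mean number of UMIs from the 29 genes was then 8.25 in cluster 2 and 13.1 in cluster 5. The variance between nuclei divided by the mean, which is 1 for counts that differ by chance sampling alone, was 1.90 in cluster 0, 1.68 in cluster 1, 1.06 in cluster 2, 1.70 in cluster 3, 1.43 in cluster 4 and 3.64 in cluster 5. The 20% portion gave 1.87, 1.65, 1.254, 1.62, 1.48 and 4.63. Cluster 2 was thus close to sampling noise and cluster 5 far from it, with 5 to 24.1 UMIs from the 5th to the 95th percentile of nuclei and 55 at most. Without nuclei called as doublets cluster 5 stood at 3.77. Both arms took part, with 2.48 for the 17 sterol enzymes and 2.56 for the 8 fatty acid genes of cluster 5. The 48 other genes of lipid metabolism, with a mean of 14.1 UMIs, gave 1.76 in that cluster and 1.12 to 1.32 in the rest, and the S phase genes, known to vary with the cell cycle, gave 3.98 to 6.43.

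**Figure D4:**
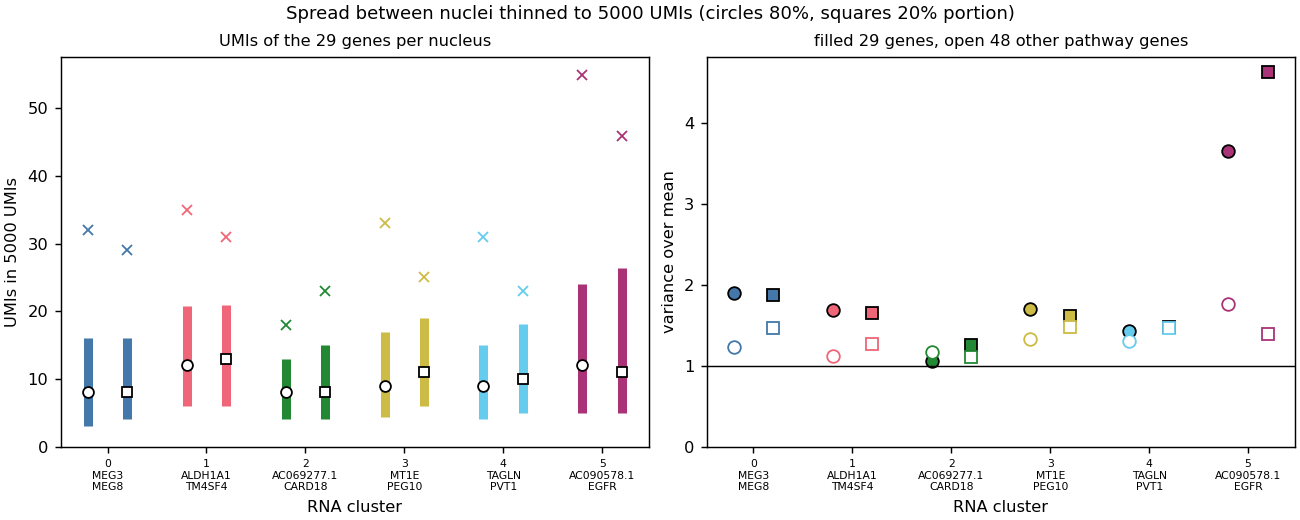
UMIs of the 29 genes in nuclei thinned to 5000 UMIs (left panel: median, bar from the 5th to the 95th percentile, cross for the highest nucleus) and their variance over mean (right panel, filled; open symbols for the 48 other pathway genes) by RNA cluster. Circles are the 80% and squares the 20% portion, and the line marks a ratio of 1. For the 29 genes cluster 5 lies at 3.64 and 4.63, and cluster 2 is nearest the line at 1.06 and 1.254.

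To see whether the genes rose and fell together from nucleus to nucleus, nuclei were ranked within each cluster by the thinned UMIs of INSIG1, HMGCS1 and SQLE, and the 25% with the most were set against the 25% with the fewest. These 3 genes chose the nuclei and are not described further. Over the 6 clusters the other 26 genes had a median CPM ratio of 1.18 between these groups, against 0.997 for 12545 counted genes. A ratio above 1 was found for 23 of the 26 genes (background 48.5%), a level at least 25% higher for 6 (background 2.61%), and a ratio above 1 in all 6 clusters for 7 (background 1.77%). The 6 genes were IDI1 (1.53), MSMO1 (1.45), MVD (1.41), FDFT1 (1.33), SCD (1.31) and DHCR7 (1.31), of which 5 belong to sterol synthesis. The median was 1.21 for the remaining genes of the mevalonate arm and likewise for the squalene and sterol arm, and 1.12 for fatty acid synthesis. PMVK (0.953), ELOVL6 (0.922) and SREBF1 (0.992) were below 1, and the 7 genes above 1 in every cluster were IDI1, MSMO1, SC5D, DHCR7, ACLY, SCD and ACSL3. The 48 other pathway genes, of which 46 were counted, had a median of 1.03.

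The clusters also differed in this joint variation in the 80% portion, but not in the same order in the 20% portion. In the 80% portion the median ratio of the 26 genes was 1.21 in cluster 0, 1.15 in clusters 1 and 3, 1.18 in cluster 4, 1.63 in cluster 5 and 0.986 in cluster 2, while that of all counted genes lay between 0.968 and 1.01. A level at least 25% higher was found for 21 of the 26 genes in cluster 5 (background 18.7%) and for 0 in cluster 2 (background 7.56%), and cluster 5 gave the highest ratio of the 6 clusters for 19 of the 26 (background 22.2%). IDI1 reached 2.63, FDFT1 2.20 and MSMO1 2.03 in cluster 5. Median depth of the groups compared there was 11932 and 12547 UMIs, and the summed S phase RNA was 1656 and 1746 CPM in the top and bottom 25%, with G2/M RNA at 2859 and 3659. In every cluster the bottom 25% held 0 thinned UMIs of the ranking genes, and ties were broken by a random draw with a fixed seed. The top 25% held a mean of 1.65, 2.60, 1.35, 2.02, 1.60 and 3.16 such UMIs per nucleus in clusters 0 to 5. The ranking was therefore coarse in all clusters and coarsest in cluster 2. The part of this in the ratios was not tested. In the 20% portion, with 12 to 120 nuclei per group, the median over the clusters was again 1.18 (all counted genes 1.02), and 8 genes were at least 25% higher over the 6 clusters, against a background of 20.3%. By cluster the median there was 1.20 in cluster 0, 1.09 in cluster 1, 0.910 in cluster 2, 1.32 in cluster 3, 1.254 in cluster 4 and 1.15 in cluster 5. Cluster 5 was thus passed by clusters 0, 3 and 4, although its spread was again the largest. In that cluster 10 of the 26 genes were at least 25% higher (background 37.7%), and it gave the highest ratio for 5 (background 28.5%), so the high ratios of cluster 5 rest on the 80% portion.

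**Figure D5:**
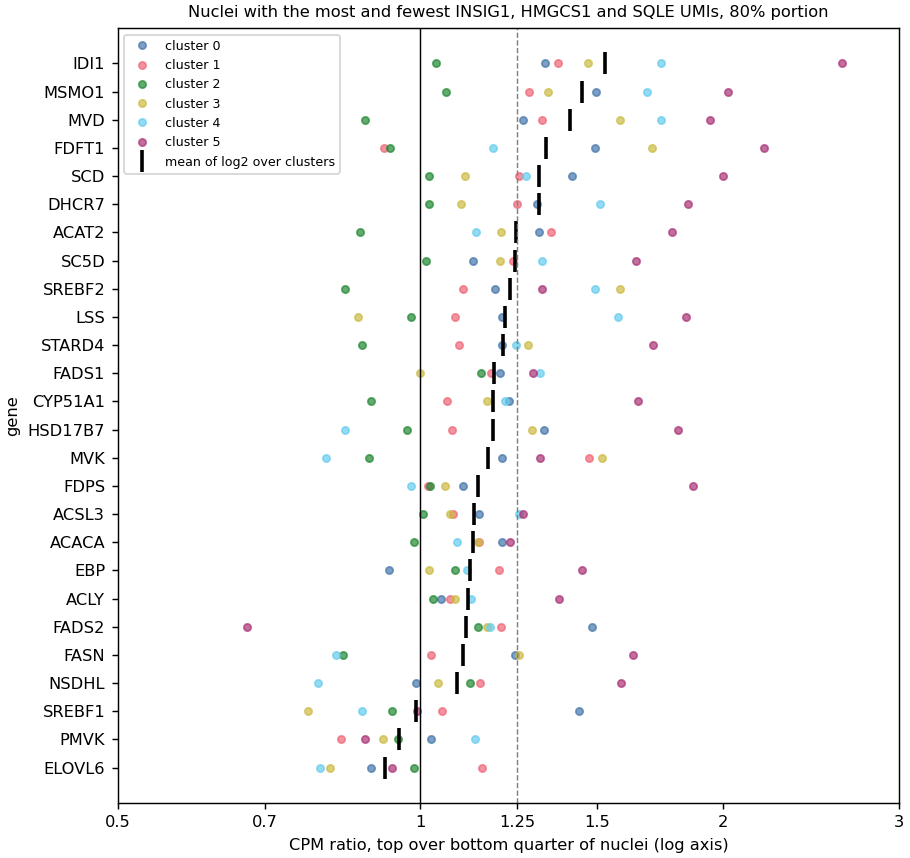
Ratio of CPM between the 25% of nuclei with the most and the 25% with the fewest INSIG1, HMGCS1 and SQLE UMIs for the other 26 genes in the 80% portion, on a log axis; points are RNA clusters, black bars the mean of the log2 ratio over the 6 clusters, and the dashed line marks 25% higher. The points of cluster 5 lie furthest to the right for 19 of the 26 genes, and those of cluster 2 lie near 1.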

How the data were processed

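RNA and ATAC were read in the same nuclei, in 1 library of each kind per portion. The authors deposited whole-number counts per barcode and feature, made with Cell Ranger ARC 2.0.0 per the submitters' processing notes, on hg38: UMI counts on 36601 genes, and ATAC counts on 158342 (80%) and 89384 (20%) peaks called per portion. Barcodes had been called as cells before deposit. The gene annotation and the use of strand or introns in counting are not given in the sources used here. Most ATAC counts are even, so intervals of ATAC ratios used counts divided by 2. Every column of values belongs to a sample of the series. Long reads and single-barcode cell line labels were not used here.

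The genes, lists and tests were chosen with earlier results of these data known, and 6 clusters were asked for because earlier results had found 6. RNA counts were log-normalized without the 29 genes and 48 pathway genes, and the 2000 most variable genes, 30 components and 20 neighbours gave Louvain clusters in Seurat 5.3.0 (R 4.3.3, seed 0, resolution 0.08). Nuclei of the 20% portion were assigned by correlation with the mean profiles of the 80% clusters; applied to the 80% nuclei themselves, this gave 98.2% their own cluster. No barcode was removed for the values in the text, and for an alternative Scrublet (scanpy 1.11.5) marked 385 and 80 barcodes as doublets.

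UMIs were summed per cluster and given per 1000000 (CPM). Genes with a mean of at least 5 CPM over the clusters were counted. Intervals are exact 95% binomial, Poisson or conditional ones from scipy 1.17.1, and since libraries are not replicated they cover counting error only. ATAC counts were summed over peaks within 1000 bp of the start interval in the feature table. Gene spans and exons came from GENCODE 44. For the ranking of nuclei each was thinned to 5000 UMIs, shallower nuclei were left out, ties were broken by a seeded draw, and 1 CPM was added to both sides of the ratio. The comparison of variance over mean and of single clusters in the ranking, and the check of keratins, EPCAM and PTPRC, were added after the data were seen. Genes named were the 29 members, genes of the 48-gene list, genes that share a start or strand with a member, and the leading genes of clusters. All 48 list genes were found, SPRING1 by its identifier. The steps were tested on simulated data.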

Additional observations from a re-analysis of the deposited data

How the results depend on the processing

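Of 132 recomputed values, 24 of the main results and 75 others stayed within set limits. The limit was the counting interval or, for counts of genes and for variance over mean, a margin of 1.5-fold. With that margin the variance over mean of cluster 5 counted as unchanged at 3.64 and 4.63. The remaining 6 and 27 moved beyond the limits. A reversed direction could be called only for STARD4, INSIG1, IDI1, DHCR7 and FADS2 in single clusters, and none was. Cluster 5 stayed highest and cluster 2 lowest in the share of pooled UMIs on the 29 genes under every alternative that kept pooled UMIs, and the ratio between them, 1.60 in the 80% portion, was 1.64 without doublets, 1.56 with clusters made from ATAC and 1.57 in the 20% portion. With the median over nuclei in place of pooled UMIs, chosen after the data were seen, the ratio of the same clusters was 1.43, and cluster 1 was highest (0.236%) and cluster 0 lowest (0.161%). The number of genes at least 2-fold apart was 22 or 23 under all alternatives that kept that fold and tested all 29 genes, and fell to 10 at 3-fold (background 38.9%) by construction. A lower floor or none could not change this number, since all 29 genes passed 5 CPM. Another clustering seed gave the same clusters, so all values recomputed with it stayed by construction. With a mark of 10% in place of 25% higher, chosen after the data were seen, 22 of 26 genes passed the ranking of nuclei (background 14.0%). Without the barcodes found in both portions the ratio of shares was 1.61 and 23 genes passed 2-fold. STARD4 in cluster 2 was 0.0361 times the others in the 80% and 0.0954 times in the 20% portion, and the cause of this shift was not tested. A scaling by median of ratios moved the clusters by -0.044 to 0.041 on the log2 scale. With RefSeq starts, 25 genes had a start and all 25 had a peak. No paired analysis was possible because each portion has 1 library of each kind and the labels carry no replicate numbers. Depth limits single low genes, such as MVK with 477 UMIs, more than the list.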
